A study of Mus musculus with 29 samples.

Results

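The RNA that remained unbound after a microglial ribosome pulldown (the negative fraction) was compared with the RNA of the same cleared brain homogenate before the pulldown (the input) in Cx3cr1-NuTRAP mice. These were 12 of the 29 libraries of the series: 6 input and 6 negative libraries, chosen by their labels, from the same 6 animals (numbered 155, 192, 194, 209, 210 and 277). The mice carried Cx3cr1-cre/ERT2 (+/wt), which encodes a tamoxifen-dependent Cre recombinase expressed from the Cx3cr1 locus, and the NuTRAP allele (flox/wt). Once recombined, NuTRAP produces an EGFP-tagged ribosomal protein L10a and a biotin- and mCherry-tagged nuclear pore protein. All groups shared this genotype and received tamoxifen daily for 5 consecutive days at about 3 months of age; males and females were used, and the sex of a library was not given in the labels. The driver limits the model in that Cre acts in every Cx3cr1-expressing cell, which includes macrophages at brain borders as well as microglia. Brain tissue was homogenized and cleared by centrifugation, an aliquot of the supernatant was kept as input, and the rest was incubated with anti-GFP antibody (for an hour or overnight, not given per library) and then with protein G magnetic beads. What the beads did not hold was the negative fraction, and what they held was the positive fraction. Strand-specific paired-end libraries were made after poly(A) selection, and all values are counts per RefSeq gene or values computed from them.

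In translating ribosome affinity purification (TRAP), an antibody against the tag pulls down the ribosomes of the tagged cell type together with the mRNA they carry. Microglia are a small minority of brain cells, so that most RNA of a brain homogenate belongs to neurons, astrocytes and oligodendrocytes and stays in the unbound pool. The unbound pool also passes through the antibody and bead incubations, whereas the input aliquot does not. In bulk samples such as these, fewer cells of a type and less RNA per cell cannot be told apart, and every value is a share of its library.

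The libraries held 18095651 to 26857866 counts (input) and 18297512 to 24999098 counts (negative), with nearly equal medians of 22540571 and 22449890. Within animals the depth differed more. Animal 194 had 18095651 counts in the input and 24999098 in the negative fraction, and animal 155 had 22363462 and 18297512. The negative library of animal 155 stood apart from the rest. On the first principal component, which held 52% of the variance of the 12 libraries, it lay at -52.5, and the other 5 negative libraries lay between -8.22 and 1.32. The log2 ratios of negative to input in this animal had an SD over genes of 0.439, against 0.242 to 0.345 in the others, and 3.11% of genes differed by more than 2-fold, against 0.502% to 1.4%. Results are therefore given with and without this animal where its removal matters.

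The paired comparison asked which transcripts changed their share of the homogenate RNA over the pulldown. In edgeR's quasi-likelihood test with the animal as block, 2431 of 13748 genes tested (17.7%) were higher in the negative fraction at a Benjamini-Hochberg adjusted p under 0.05, and 2684 (19.5%) were lower. The changes were small: the median log2 change was 0.24 among the genes that rose and -0.24 among those that fell, and 96.7% of all genes tested lay between -0.5 and 0.5. In the genes that rose the direction was shared by 6 of 6 animals for 1893, and in those that fell for 2213. Above a log2 change of 0.32, the size limit used in the study, 501 genes (3.64%) rose and 824 (5.99%) fell. More than 2-fold changes were found for 10 genes that rose and 58 that fell, so the tail of the distribution was on the side of loss. Despite the number of calls, the levels of the 6 input and the 6 negative libraries overlapped for nearly all genes, and they did not overlap for 175 genes that were higher and 341 that were lower in the negative fraction. The number of calls depended on the model: without the animal 194 genes (1.41%) were higher and 646 (4.7%) lower, and with the animal but with the positive libraries in the same fit 38 were higher and 296 lower. Without animal 155 the counts were 2491 higher and 2710 lower, and without animal 210 they were 1612 and 1828.

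The property that ordered the changes most clearly was transcript length. Lengths were those of the longest annotated transcript of each gene, protein-coding where there was one, which may differ from the model the authors counted; 13650 of the tested genes had a length. In the shortest quintile (67 to 1879 nucleotides) the median log2 change was 0.20, and 51.4% of the genes rose while 1.03% fell. In the longest quintile (5252 to 123200 nucleotides) the median was -0.19, with 2.02% of the genes rising and 59.2% falling. The quintiles between them stepped down in order, with medians of 0.076, 0.00014 and -0.078. The same order was seen in every animal: the median of the longest quintile minus that of the shortest was -0.18 in animal 192, -0.25 in 194, -0.37 in 277, -0.39 in 209, -0.53 in 210 and -0.62 in 155, a mean of -0.39 ± 0.17 (SD, n = 6), and -0.34 without animal 155. Across the 13650 genes, which are not independent, Spearman's rank correlation of length with log2 change was -0.68. This is a description over genes measured in the same 12 libraries, and its source was not tested.

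**Figure D1:**
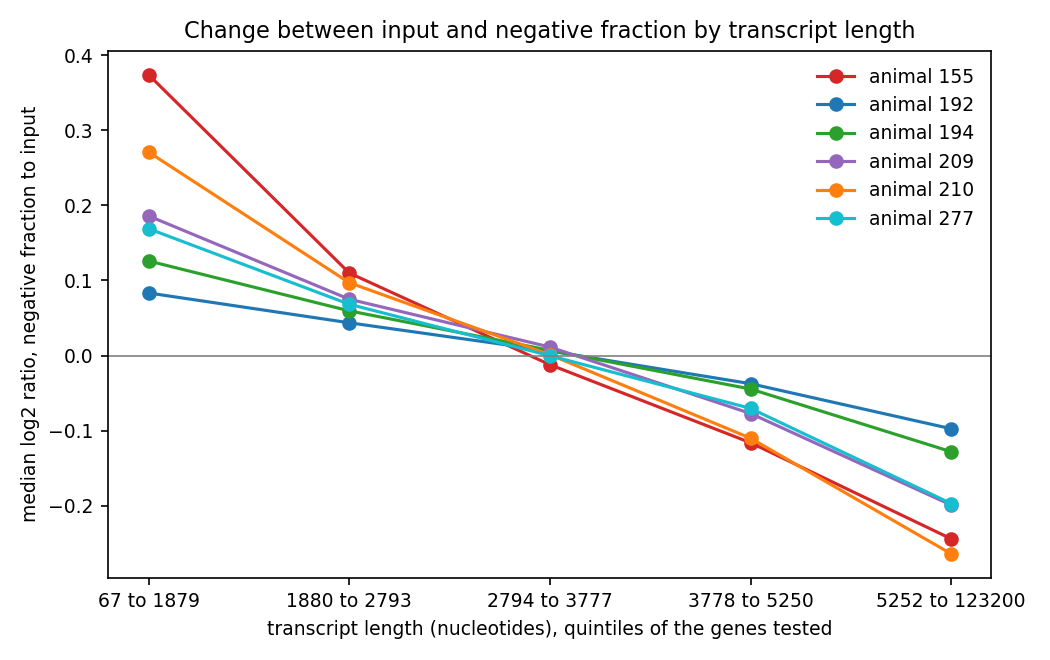
Median log2 ratio of negative fraction to input (vertical axis) for the genes of each transcript length quintile (horizontal axis, nucleotides), 1 coloured line for each of the 6 animals. All 6 lines fall from left to right, from 0.083 to 0.37 in the shortest quintile to between -0.26 and -0.097 in the longest, with the widest span in animals 155 and 210.

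Both the coding part and the 3′ untranslated part of the transcript carried this order. Among genes in the shortest quintile of coding length, the median log2 change went from 0.28 at the shortest 3′ UTRs to -0.0095 at the longest. Among genes in the longest quintile of coding length it went from -0.059 to -0.23. GC content had a smaller relation, with a difference of 0.14 ± 0.066 (SD, n = 6 animals) between the quintiles highest and lowest in GC. Within the shortest length quintile the medians over the GC quintiles were all positive, between 0.17 and 0.21, and within the longest they were all negative, between -0.20 and -0.16. The mean level of a gene had almost none, at -0.0090 ± 0.036 between the highest and lowest quintiles. The genes retained on the beads showed the same order against the same inputs: from the shortest to the longest quintile, the median log2 change of the positive fraction was 0.24, 0.074, -0.035, -0.16 and -0.31. The 2 comparisons share their input libraries, so they are set side by side and not counted as support for each other.

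The libraries themselves also differed in this respect before any pairing. The median log2 level of the longest minus that of the shortest quintile, with each gene set relative to its mean over the inputs, ran from -0.35 to 0.17 in the input libraries, from -0.95 to -0.21 in the negative libraries and from -0.80 to -0.23 in the positive libraries. It ran from -0.20 to 0.16 in 5 whole-tissue libraries that did not pass through the homogenate. The negative library of animal 155 had the lowest value of all 23, and the input of animal 155 the lowest of the inputs. In animal 155 the negative library lay below the positive one, and in the other 5 animals it lay above. Since the gene classes below differ in length, each class is given as measured and again after a correction of every library for GC content and transcript length. The correction left 1164 genes higher (8.47%) and 1103 lower (8.02%), and these shares are the background for corrected counts. Of the original calls, 29.5% stayed called in the same direction, whereas 17.7% took the opposite sign.

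Genes whose products form the basic machinery of every cell, with mostly short transcripts, were more often higher than the background of 17.7%. Of 80 cytosolic ribosomal protein genes tested, 73 rose and 0 fell, with a median log2 change of 0.26. The class median ran from 0.072 in animal 192 to 0.54 in animal 155, and 76 of 80 rose without animal 155. Rpl23, a protein of the large subunit, had 145, 155 and 181 CPM (counts scaled to library size; lowest, median and highest) in the inputs and 175, 184 and 241 in the negative fractions. The ranges overlapped slightly, and it was higher in 6 of 6 animals (log2 change 0.30, SE 0.040, adjusted p = 0.000101, edgeR). After the correction 8 of the 80 genes were higher and 2 were lower (10% and 2.5%, against 8.47% and 8.02% of all genes). The mean over animals of the class median was then 0.0089 ± 0.042 (SD, n = 6). Without the block 2 of the 80 were higher. Reads of ribosomal protein genes can be shared with their many processed copies, so single values in this class are uncertain.

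The energy-producing and protein-degrading machinery moved in the same direction. Shares of higher genes in its 3 lists lay between 71.1% and 88.6%, against 17.7% of all genes. Of 79 nuclear-encoded respiratory chain genes 70 rose and 0 fell (median 0.32), of 76 mitochondrial ribosomal protein genes 54 rose and 0 fell (median 0.25), and of 37 proteasome genes 30 rose and 0 fell (median 0.23). In each of these lists the per-animal median was above that of all genes in 6 of 6 animals, and without animal 155 the counts were 74, 52 and 28. Ndufa1, a subunit of complex I with a transcript of 419 nucleotides, had 42.9, 47.6 and 57.8 CPM in the inputs and 52.2, 62.5 and 94.9 in the negative fractions (log2 change 0.41, SE 0.060, adjusted p = 0.000163, edgeR). Sdha, the flavoprotein of complex II with a transcript of 2900 nucleotides, had 510, 540 and 560 CPM in the inputs and 520, 546 and 576 in the negative fractions, which overlapped almost wholly (log2 change 0.019, adjusted p = 0.63). The proteasome showed the same contrast within its list. Psmb5, a catalytic subunit with 899 nucleotides, was higher by 0.35 (adjusted p = 4.53e-05), and Psmd2, a large regulatory subunit with 2961 nucleotides, had a log2 change of 0.068 (adjusted p = 0.11). After the correction 13, 15 and 6 genes of the 3 lists were higher and 0 lower. These were 16.5%, 19.7% and 16.2% higher, where 8.47% of all genes were higher and 8.02% lower. Mrps14, a mitochondrial small-subunit protein, was among those still higher (0.28 as measured and 0.30 corrected), and Mrpl20 of the large subunit was not called after the correction (0.33 and 0.051).

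Smaller lists, of median transcript lengths from 1554 to 2803 nucleotides, had the same direction. The shares that rose lay between 53.3% and 93.8%, against 17.7% of all genes. Of 16 tubulin, actin and stathmin genes 15 rose (median 0.20), of 16 glycolysis genes 12 rose (0.13), of 10 histone variants 7 rose (0.20), of 15 chaperones 8 rose (0.13), of 12 endoplasmic reticulum stress genes 7 rose (0.14) and of 10 selenoprotein genes 6 rose (0.19), and 0 members of these lists fell. Actb, the cytoplasmic actin, had 1010, 1060 and 1100 CPM in the inputs and 1200, 1240 and 1290 in the negative fractions. The groups did not overlap, and Actb was higher by 1.17-fold (log2 change 0.23, SE 0.029, adjusted p = 5.72e-05, edgeR). Of the glycolytic enzymes, Gapdh had 1130, 1220 and 1270 CPM against 1290, 1350 and 1400, also without overlap (log2 change 0.16, adjusted p = 0.00117). Both genes are common reference genes for qPCR, and each was higher in the negative fraction of 6 of 6 animals. After the correction the counts of higher genes in the 6 lists were 3, 4, 1, 4, 1 and 1. For the cytoskeletal genes, glycolysis and chaperones these were shares of 18.8%, 25% and 26.7%, above the 8.47% of all genes. For histone variants, endoplasmic reticulum stress and selenoproteins they were 10%, 8.33% and 10%, near it. Gapdh took the opposite sign after the correction (-0.048, not called), whereas Actb stayed higher (0.11). Actin, tubulin and Gapdh transcripts have near-identical copies elsewhere in the genome and carry the same uncertainty as the ribosomal proteins.

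**Figure D2:**
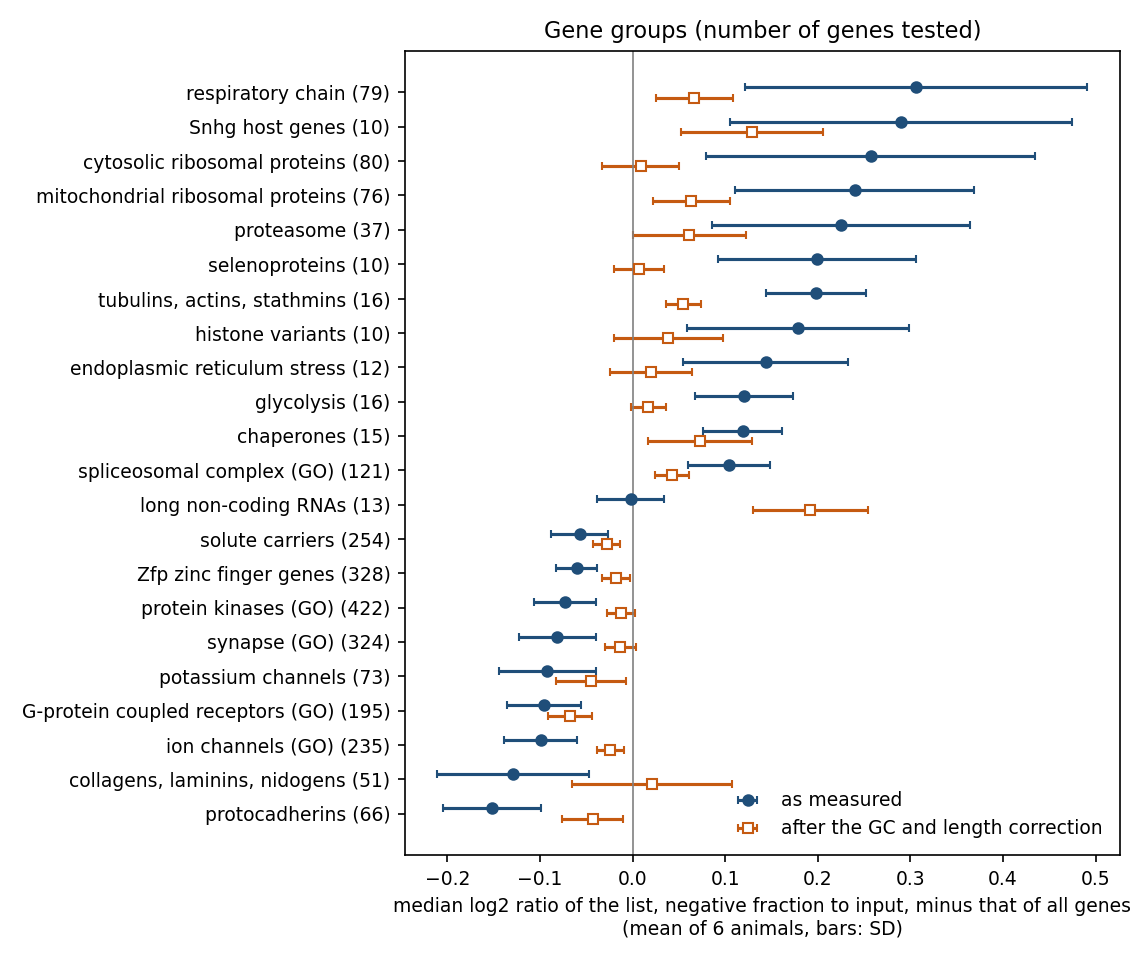
Median log2 ratio of negative fraction to input for each gene list, minus that of all genes, as the mean of 6 animals with SD bars (horizontal axis), as measured (filled circles) and after the GC and length correction (open squares). The 12 lists above 0 lie between 0.10 and 0.31 as measured and between 0.0068 and 0.13 after the correction; the lists from protocadherins to solute carriers move from between -0.15 and -0.057 to between -0.068 and 0.021, and the long non-coding RNAs move the other way, from -0.0022 to 0.19.

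Genes of the cell surface and of signaling, with longer transcripts, were more often lower than higher. Of 66 protocadherins, adhesion molecules of neurons, 22 fell (33.3%) and 1, Pcdhgb8, was higher, with a median log2 change of -0.15. The exons of the clustered protocadherins share their 3′ constant ends, so counts of single members are uncertain. Of 73 potassium channel genes 25 fell and 7 rose (median -0.082), and of 235 genes annotated to ion channel activity by the authors, 81 fell and 20 rose (median -0.095). Protein kinases (135 lower and 32 higher of 422, median -0.074), synapse genes (130 lower and 34 higher of 324, median -0.083) and G-protein coupled receptors (46 lower and 5 higher of 195, median -0.073) had the same balance. Of 51 collagens, laminins and nidogens, which form the basement membrane and matrix, 14 fell and 0 rose (median -0.094). Zinc finger genes named Zfp (63 lower and 20 higher of 328) and solute carriers (55 lower and 19 higher of 254) had shares of lower genes of 19.2% and 21.7%, near the 19.5% of all genes, but few higher genes (6.1% and 7.48%, against 17.7%).

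The lists of long transcripts did not all behave alike after the correction. The collagens, laminins and nidogens then had 0 genes called in either direction, and their mean over animals went from -0.13 ± 0.082 to 0.021. Against the corrected background of 8.47% higher and 8.02% lower, potassium channels then had 15 lower (20.5%) and 3 higher, ion channels 40 lower (17%) and 13 higher, and G-protein coupled receptors 26 lower (13.3%) and 5 higher. Synapse genes had 52 lower (16%) and 37 higher (11.4%), and as measured without animal 155 they had 127 lower and 51 higher. Protein kinases (39 lower, 9.24%, and 31 higher), protocadherins (7 and 6), solute carriers (21, 8.27%, and 12) and Zfp genes (19 and 19) had shares of lower genes nearer to the background. Genes of 1 list also differed among themselves. Kcnq3, a subunit of the M-current channel, had 11.0, 18.8 and 25.7 CPM in the inputs and 4.39, 8.48 and 10.7 in the negative fractions without overlap, a log2 change of -1.19 (SE 0.10, adjusted p = 2.97e-06, edgeR). Kcna2, a delayed-rectifier subunit with a transcript of similar length (11582 against 11824 nucleotides), had 467, 486 and 504 CPM in the inputs and 457, 483 and 521 in the negative fractions, with a log2 change of 0.0063 (adjusted p = 0.91). The pair was chosen after its values were seen. Lamc1, a laminin chain, had 32.7, 40.2 and 44.0 CPM against 25.4, 32.2 and 35.3, with overlapping ranges (log2 change -0.34, adjusted p = 0.000293).

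Among genes with more than 20 counts in all 12 libraries, the falls of largest size were of genes at low level. Dok6, an adaptor of receptor tyrosine kinases, lay on chromosome 18 from 89301135 to 89769136 (mm10). It had 3.48, 6.23 and 8.88 CPM in the inputs and 0.88, 1.75 and 2.73 in the negative fractions. The groups did not overlap, and the level in the negative fraction was 0.288 times that of the input (log2 change -1.80, SE 0.15, adjusted p = 2.74e-06, edgeR). Igsf9b, an adhesion protein of inhibitory synapses, went from 7.01, 15.5 and 24.3 CPM to 2.39, 5.34 and 5.97 (log2 change -1.60), again without overlap. Erbb4, the neuregulin receptor of interneurons, on chromosome 1 from 68039966 to 69108059 (mm10), went from 6.66, 10.7 and 17.7 CPM to 1.82, 3.78 and 6.58 (log2 change -1.50). Grin2a, an NMDA receptor subunit, fell by 1.26 on the log2 scale, and its ranges of 9.32 to 22.6 CPM and 3.31 to 9.98 CPM overlapped at their ends. All 4 genes were lower in 6 of 6 animals, and their log2 changes without animal 155 were -1.84, -1.61, -1.45 and -1.23.

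The other 11 of the 15 falls ranked by size had log2 changes between -1.42 and -1.21 and were lower in 6 of 6 animals. Among them were Dgkh, a diacylglycerol kinase; Zbed6, a transcriptional repressor; Itgb8, the integrin subunit that activates TGF-beta; Tenm1, a teneurin; Il1rapl1, a synaptic adhesion protein; Ptar1; Klhl11; Kcna3, a potassium channel; Slc9a7, a sodium-proton exchanger; and Xkr4. Their annotated transcripts were not all long: Kcna3 had 1902, Klhl11 2393 and Slc9a7 2512 nucleotides. Klhl11, a member of the kelch-like family, had 16.5, 25.9 and 34.9 CPM in the inputs and 5.59, 10.9 and 14.7 in the negative fractions without overlap. Its log2 change of -1.26 (SE 0.077, adjusted p = 1.82e-07) was -1.31 after the correction. All 15 falls stayed called after the correction, with log2 changes of -1.46 to -0.93.

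Among genes with a mean of at least 100 CPM the falls were smaller. Atp2b3, a calcium pump of the plasma membrane, had 97.3, 146 and 168 CPM in the inputs and 40.1, 93.1 and 113 in the negative fractions. The lowest value of each fraction was that of animal 155 and the ranges overlapped, and it was lower in 6 of 6 animals (log2 change -0.71, SE 0.11, adjusted p = 0.00246, and -0.60 without animal 155). Sorl1, the sorting receptor of the amyloid precursor protein, followed with -0.67, Cacna1e, an R-type calcium channel, with -0.66, Arhgap5, a GTPase-activating protein, with -0.65, and Peg3, an imprinted zinc finger gene, with -0.64. Slc1a2, the main astrocyte glutamate transporter and among the most abundant long transcripts, had 1780, 2000 and 2080 CPM against 1380, 1790 and 1930, with overlap (log2 change -0.19, adjusted p = 0.00091). After the correction its sign turned (0.093).

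The rises of largest size were mostly of genes at a few CPM, and the value of animal 155 was part of many of them. 5031426D15Rik, an unnamed transcript on chromosome 2 from 6922702 to 6928722 (mm10), rose in every animal. It had 1.54, 2.00 and 3.70 CPM in the inputs and 4.30, 5.04 and 10.7 in the negative fractions without overlap (log2 change 1.39, SE 0.16, adjusted p = 3.36e-05, and 1.26 without animal 155). Prkag3, a regulatory subunit of AMP-activated kinase, had 1.69, 2.91 and 4.66 CPM in the inputs and 3.87, 5.59 and 28.2 in the negative fractions, and the highest value was that of animal 155. The ranges overlapped, although it was higher in 6 of 6 animals, and its log2 change of 1.31 (adjusted p = 0.00483) was 0.96 without that animal. Klk14, a secreted protease, and Aqp7, an aquaglyceroporin, went from log2 changes of 1.19 for each to 0.68 and 0.74 without it. The same held for Gm10408 (1.09 and 0.72), Gm20337 (0.99 and 0.64) and Bcmo1, the beta-carotene cleaving enzyme (0.96 and 0.65). Each of these 6 genes stayed called without the animal. The other 8 of the 15 rises had log2 changes of 0.62 to 0.85: Nrp, Malat1, Trdn, Ccl25, CK137956, Rplp2-ps1, Jsrp1 and Gm11627, of which Malat1 alone had a mean above 100 CPM.

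**Figure D3:**
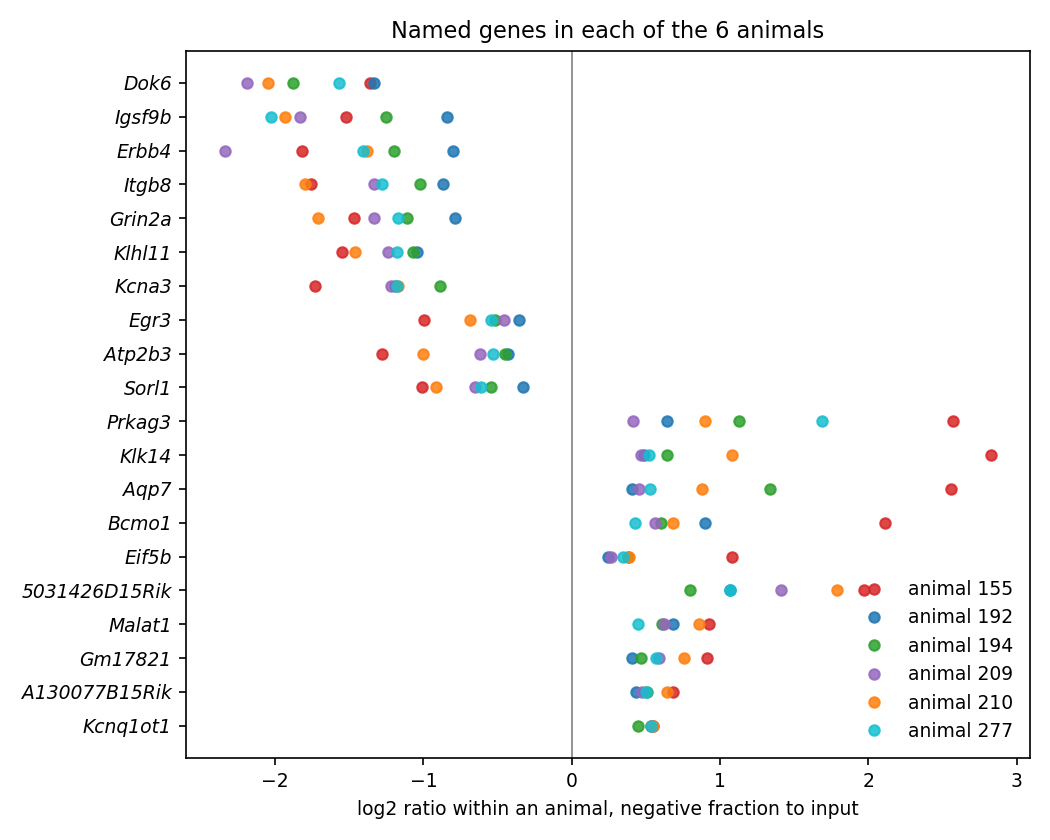
Log2 ratio of negative fraction to input within each animal (horizontal axis) for 20 named genes (rows), 1 coloured point for each of the 6 animals. Dok6, Igsf9b, Erbb4 and the other falls lie left of 0 in all animals; Prkag3, Klk14, Aqp7 and Bcmo1 have 1 point, animal 155, far to the right of the others, and Kcnq1ot1 has its 6 points between 0.45 and 0.55.

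Of 13 long non-coding RNAs of the nucleus or of imprinted regions 4 rose (30.8%, against 17.7% of all genes) and 3 fell (23.1%, against 19.5%), with a median log2 change of -0.038. Malat1, an RNA of nuclear speckles on chromosome 19 from 5795690 to 5802671 (mm10), had 282, 364 and 431 CPM in the inputs and 434, 590 and 818 in the negative fractions. The groups did not overlap, and it rose by 1.61-fold (log2 change 0.69, SE 0.052, adjusted p = 4.09e-06, edgeR), with per-animal log2 ratios of 0.45 to 0.92. Its log2 change in the positive fraction against the same inputs was 2.71. Kcnq1ot1, a nuclear RNA that silences an imprinted cluster, had 244, 259 and 372 CPM against 353, 377 and 508, with a slight overlap and a narrow spread over animals (log2 change 0.52, SE 0.031, adjusted p = 1.53e-07). Gas5, a host of small nucleolar RNAs, was higher by 0.26 and Mirg by 0.22. Miat (-0.15), Xist (-0.33) and Pvt1 (-0.31) were lower. Meg3, the most abundant at 3680, 4360 and 4750 CPM in the inputs, had 3980, 4250 and 4650 in the negative fractions and was not called (log2 change -0.0014, adjusted p = 0.98).

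Of these 13 RNAs, 9 lay in the longest quintile, where 59.2% of genes fell. As measured the list median lay at -0.0022 ± 0.037 (mean over animals, SD, n = 6). After the correction 8 of the 13 were higher (61.5%, against 8.47% of all genes) and 0 lower, and the mean over animals of the list median was 0.19 ± 0.062 (SD, n = 6), above 0 in 6 of 6 animals. The 8 were Malat1 (0.91), Kcnq1ot1 (0.54), Neat1 (0.36), Meg3 (0.29), Rian (0.28), Gas5 (0.22), Tug1 (0.17) and Snhg11 (0.12). The poly(A) selection and the length used for Kcnq1ot1 (93092 nucleotides) bear on single values here. Of 10 Snhg genes, the hosts of small nucleolar RNAs, 5 rose and 0 fell (Snhg5, Snhg3, Snhg4, Snhg12 and Snhg8, log2 changes 0.36 to 0.40). Snhg12 had 10.3, 12.8 and 15.4 CPM in the inputs and 13.3, 16.1 and 20.2 in the negative fractions, with overlap. After the correction 3 of the 10 were higher. Over all 410 tested genes annotated as miscellaneous RNA, 15.1% rose and 7.32% fell, against 17.7% and 19.5% of all genes. Their median log2 change was 0.080, and 0.027 after the correction.

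**Figure D4:**
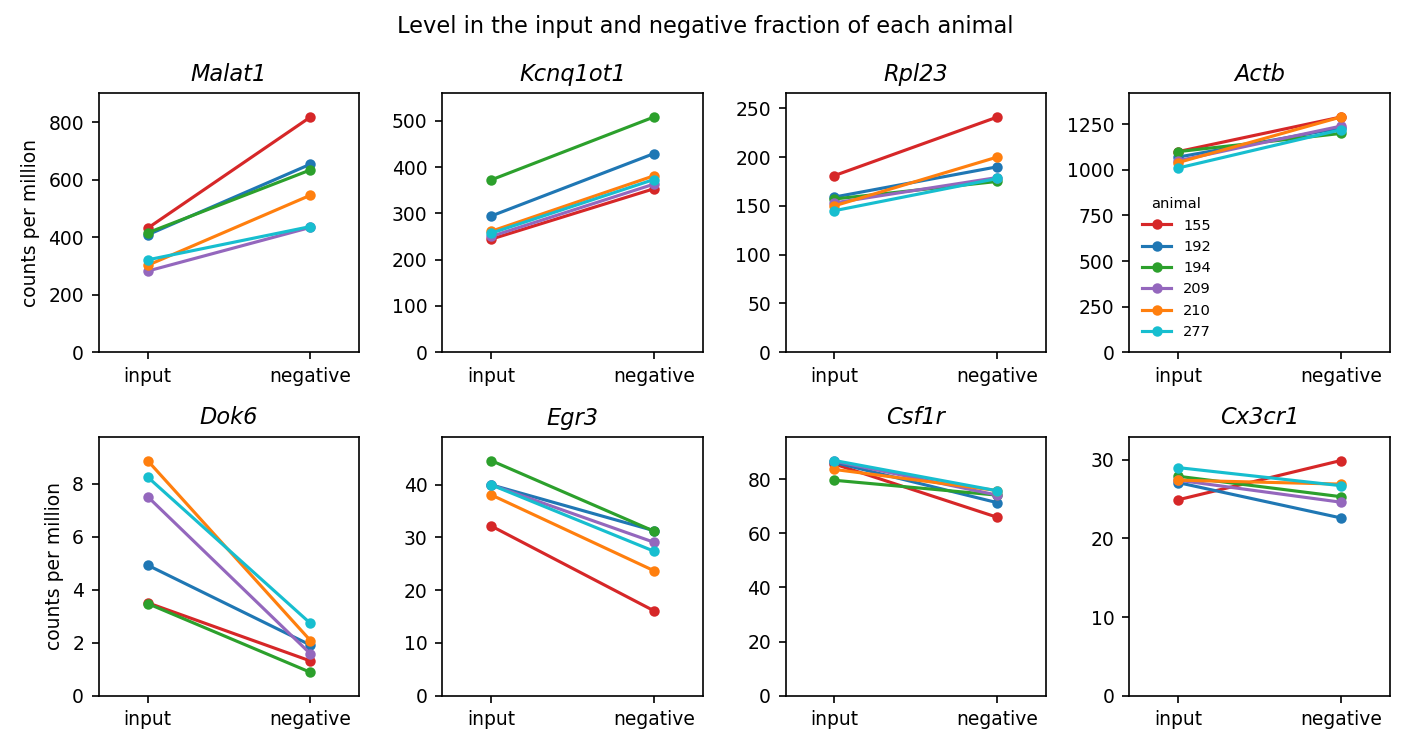
Level in CPM (vertical axes, from 0) in the input and the negative fraction of each animal, joined by a line per animal, for 8 genes. Malat1, Kcnq1ot1, Rpl23 and Actb rise in 6 of 6 animals, Dok6, Egr3 and Csf1r fall in 6 of 6, and Cx3cr1 stays within 22.6 to 29.9 CPM in the negative fractions against 24.9 to 29.0 in the inputs.

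The genes that moved against their annotated length were chosen after their values were seen and are given as a description. That length may differ from that of the model the authors counted. In the longest quintile 55 genes rose. Besides Malat1 and Kcnq1ot1, those of largest change were Vmn1r58 (0.56), Brip1, a helicase of DNA repair (0.56), and Zbtb20, a transcriptional repressor of brain development (0.50). In the shortest quintile 28 genes fell. Nt5c1a, a nucleotidase, had 2.66, 3.34 and 4.82 CPM in the inputs and 1.04, 1.69 and 2.55 in the negative fractions without overlap (log2 change -1.12, adjusted p = 0.000609). Plcxd3 (-1.09), Hs6st3, a heparan sulfate sulfotransferase (-0.96), and Syt10, a synaptotagmin (-0.79), followed. Among genes above 100 CPM, further rises were those of Gm17821 (0.62), A130077B15Rik (0.54) and Eif5b, a translation initiation factor (0.45, and 0.33 without animal 155).

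Nuclear, mitochondrial and reticulum-bound products were compared by the annotation in the authors' table. Of 1330 genes annotated to the mitochondrion 447 rose (33.6%) and 122 fell (9.17%), and of 121 genes of the spliceosomal complex 51 rose and 14 fell. Of 829 genes annotated to the endoplasmic reticulum 148 rose and 148 fell (17.9% each), and of 4180 annotated to the nucleus 799 rose (19.1%) and 830 fell (19.9%). Both of these were near the background of 17.7% and 19.5%. After the correction the mitochondrion had 134 higher (10.1%) and 70 lower (5.26%), the spliceosomal complex 19 higher (15.7%) and 6 lower, the endoplasmic reticulum 71 and 72 and the nucleus 457 (10.9%) and 291 (6.96%), against 8.47% and 8.02% of all genes. Of 146 genes annotated to the ribosome 110 rose, and the 3 that fell, Rps6ka3, Rps6ka2 and Rps6kb1, encode ribosomal S6 kinases and no ribosomal protein; 24 were higher and 1 lower after the correction. Of 20 splicing factors 5 rose (Luc7l3, Srsf4, Tra2a, Srsf11 and Hnrnpa2b1) and 0 fell, and 4 were higher and 1 lower after the correction.

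The pulldown removed tagged ribosomes from the homogenate, and the microglial transcripts left in the unbound pool were examined by 3 lists. Of 239 microglial markers taken from the study's supplement, 230 were tested; 23 fell (10%) and 17 rose (7.39%), both below the background of 19.5% and 17.7%. Their median log2 change relative to all genes was -0.016 ± 0.018 (SD, n = 6) and was below 0 in 5 of 6 animals. In the positive fraction against the same inputs the median was 2.53, and 221 of 230 rose, where 19% of all genes rose. After the correction 17 were lower (7.39%, against 8.02% of all genes) and 6 higher (2.61%, against 8.47%), so the count of lower genes was not above the background. The mean over animals of the list median was then -0.048 ± 0.015. The list median was below 0 in 6 of 6 animals, as were those of the astrocyte and oligodendrocyte markers. The size of the microglial difference depends on the correction and on the genes tested: among genes with at least 100 counts it was 0.0099 without correction.

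Of 20 homeostatic microglia genes, 4 fell (Csf1r, P2ry12, P2ry13 and Sall1) and 0 rose, and 5 fell without animal 155. The share of 20% lower is that of all genes (19.5%), and without the block 1 of the 20 was lower. Csf1r, the receptor for colony stimulating factor 1 that keeps microglia alive, had 79.6, 85.9 and 86.9 CPM in the inputs and 65.9, 74.1 and 75.8 in the negative fractions. The groups did not overlap, and the level was 0.859 times that of the input (log2 change -0.22, SE 0.044, adjusted p = 0.00144, edgeR). P2ry12, the purinergic receptor that marks microglia, had 22.8, 24.3 and 26.4 CPM against 18.9, 22.0 and 22.3, also without overlap (log2 change -0.19, SE 0.061, adjusted p = 0.0206). P2ry13 was lower by a log2 change of -0.27 (adjusted p = 0.0445) with overlapping ranges, and Sall1, a transcription factor of microglial identity also found in other brain cells, by -0.20. These falls are small beside the enrichment in the positive fraction, where the log2 changes of the 4 genes were 3.36, 3.09, 3.16 and 1.03.

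Other defining genes of microglia were not called. Cx3cr1, the fractalkine receptor whose locus drives the Cre, had 24.9, 27.4 and 29.0 CPM in the inputs and 22.6, 26.0 and 29.9 in the negative fractions (log2 change -0.073, SE 0.067, adjusted p = 0.42). Ctss (0.018), C1qa (0.12) and Aif1 (0.31) had log2 changes of positive sign, adjusted p of 0.072 to 0.83, and transcripts of 875 to 1355 nucleotides. Over the whole list, 8 of the 20 log2 changes lay below the median of all genes, among them the 4 falls and that of Cx3cr1. Of the 20 genes, 8 lay in the shortest length quintile. After the correction 7 were lower (35%, against 8.02% of all genes: Csf1r, P2ry12, P2ry13, Ctss, C1qb, C1qc and Tyrobp) and 1 higher (Olfml3), and the mean over animals of the list median went from -0.0037 ± 0.082 to -0.13 ± 0.027, below 0 in 6 of 6. The third list, 117 tested genes from ribosomal-tagging studies of microglia, had 10 lower (8.55%) and 3 higher (2.56%: Snx20, Grap and Rgs10), both below the 19.5% and 17.7% of all genes. After the correction it had 12 lower (10.3%, against 8.02%) and 1 higher (0.855%, against 8.47%) and a mean of -0.083 ± 0.048, below 0 in 6 of 6. Without animal 155 its counts were 8 lower and 1 higher. That list was chosen partly on these libraries and is not independent evidence of its direction.

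**Figure D5:**
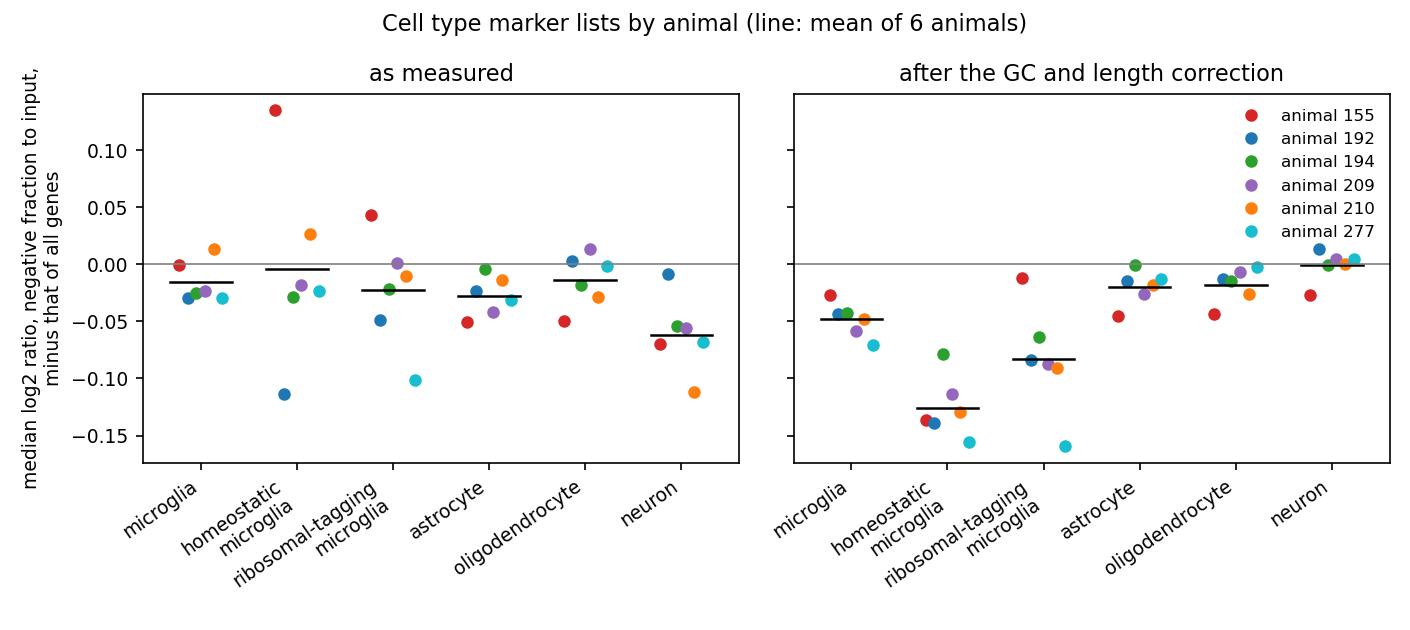
Median log2 ratio of negative fraction to input of 6 marker lists, minus that of all genes (vertical axis), 1 point per animal and a line at the mean of 6 animals, as measured (left) and after the GC and length correction (right). As measured the points of the microglial lists lie on both sides of 0. After the correction all points of the 3 microglial lists lie below 0, with means of -0.048, -0.13 and -0.083. All points of the astrocyte and oligodendrocyte lists then lie below 0 as well, with means of -0.020 and -0.018. The neuronal mean is -0.00072.

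Markers of the other main cell types moved in both directions. Of 138 astrocyte markers 42 fell (30.4%) and 19 rose, of 193 oligodendrocyte markers 42 fell (21.8%) and 39 rose (20.2%), and of 99 neuronal markers 39 fell (39.4%) and 18 rose (18.2%). Over all genes 19.5% fell and 17.7% rose, so the oligodendrocyte shares were near the background. Without animal 155, 27 neuronal markers rose and 43 fell. Relative to all genes the means over animals were -0.028 ± 0.018, -0.014 ± 0.023 and -0.062 ± 0.033 (SD, n = 6). The neuronal markers had the longest transcripts, with a median of 4137 nucleotides, and after the correction 11 of them were higher and 11 lower (11.1% each), with a mean of -0.00072 ± 0.014. Astrocyte markers then had 21 lower (15.2%) and 13 higher (9.42%), and oligodendrocyte markers 27 lower (14%) and 13 higher (6.74%). Over all genes 8.02% were then lower and 8.47% higher. The corrected means of the astrocyte and oligodendrocyte lists were -0.020 ± 0.015 and -0.018 ± 0.015. Both list medians were below 0 in 6 of 6 animals. Whether the lists differ from each other was not tested.

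Single markers of 1 cell type moved in either direction. Among astrocyte genes, Aqp4, the endfoot water channel, had 191, 215 and 245 CPM against 142, 182 and 206 with overlap (log2 change -0.28, SE 0.047, adjusted p = 0.000437). Apoe, the main apolipoprotein of astrocytes, had 1650, 1750 and 1880 CPM against 1960, 2020 and 2490 without overlap (log2 change 0.25, adjusted p = 0.000636), although both mark astrocytes. Kcnj10, an inward rectifier, was lower by -0.16, and Aldh1l1 (0.10, adjusted p = 0.075) and Gfap (0.081, adjusted p = 0.058) were not called. Of 15 myelin genes, Mbp (0.13) and Cnp (0.092) were higher and Ugt8a (-0.30) and Plekhh1 (-0.39) lower (13.3% each, against 17.7% and 19.5% of all genes), whereas Mog and Opalin were not called. Without animal 155, 4 myelin genes were higher and 2 lower, and the list median went from -0.020 to 0.021. After the correction 2 were higher (13.3%, against 8.47%) and 3 lower (20%, against 8.02%). Among neuronal genes Syt2 (-0.45) and Kcnb2 (-0.44) were lower, and Syt4 was not called (0.052). Eno2, the neuronal enolase, had 928, 945 and 967 CPM against 991, 1000 and 1010 without overlap, a difference of 1.06-fold (log2 change 0.081, adjusted p = 0.0263). Snap25, a fusion protein of synaptic vesicles, was higher by 0.077.

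Cells of vessels, ventricles and blood were represented by short lists. Of 7 erythrocyte genes tested 5 rose, among them Hba-a2, Hbb-b1, Hba-a1 and Bpgm, with a median log2 change of 0.30, and the same list had a median of -0.50 in the positive fraction. Hbb-b1, a beta-globin, had 48.9, 75.2 and 124 CPM in the inputs and 54.8, 102 and 173 in the negative fractions; the ranges overlapped widely, with globin levels that differed between animals in both fractions, and it was higher in 6 of 6 (log2 change 0.30, SE 0.073, adjusted p = 0.00701). The alpha-globin genes Hba-a1 and Hba-a2 are near-identical copies and share reads. After the correction 2 of the 7 were higher and 0 lower, and the log2 changes of the 3 globin genes were 0.00039 to 0.048 and none was called. Of 16 endothelial genes Egfl7 (0.38), Ly6c1 (0.27) and Cldn5 (0.25) were higher and Abcb1a (-0.29) and Flt1 (-0.24) lower, shares of 18.8% and 12.5% against 17.7% and 19.5% of all genes. Of 11 mural cell genes Vtn was higher and Abcc9, Rgs5, Notch3 and Pdgfrb were lower (9.09% and 36.4%). After the correction 0 endothelial genes were higher and 1 lower, and 0 mural genes were higher and 1 lower, where 8.47% and 8.02% of all genes were called.

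Of 12 choroid plexus genes, Ttr, the transthyretin that choroid plexus secretes, was higher (757, 861 and 926 CPM against 856, 1030 and 1400, log2 change 0.33, adjusted p = 0.000416) and Kl was lower (-0.21). Of 6 ependymal genes 3 were higher (Dynlrb2, Ccdc153 and Rsph1), and 0 were called without animal 155. Oligodendrocyte precursor genes had 2 higher (C1ql1 and Olig1) and 3 lower (Vcan, Pdgfra and Gpr17) of 12. The precursor shares of 16.7% and 25%, and the choroid plexus shares of 8.33% each, rest on a few genes and stand against 17.7% and 19.5% of all genes. After the correction choroid plexus genes had 1 higher and 0 lower, ependymal genes 0 called and precursor genes 0 higher and 1 lower. Over all genes 8.47% were then higher and 8.02% lower. Of 10 genes of border macrophages 5 were tested and Cd163 was lower (-0.56), and 0 were called after the correction. Of 12 genes of monocytes and neutrophils 0 passed the filter on low counts, and of 12 lymphocyte genes 1 did, which was not called, so the defining genes of these cells were at or near the limit of detection in both fractions. The part of cell mixture in the gene class results was not tested.

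Of 27 immediate early genes, which neuronal activity induces, Jund, Ier2 and Junb were higher (log2 changes 0.25, 0.24 and 0.18) and Nr4a3 and Egr3 lower. These shares of 11.1% and 7.41% were below the 17.7% and 19.5% of all genes. Egr3, a transcription factor induced by neuronal activity, had 32.2, 40.0 and 44.6 CPM in the inputs and 16.1, 28.3 and 31.3 in the negative fractions without overlap (log2 change -0.58, SE 0.070, adjusted p = 4.17e-05, edgeR). Its transcript of 3940 nucleotides lies in the quintile next to the longest, where 26.2% of genes fell, and its change after the correction was -0.55. Egr1 was not called (0.041, adjusted p = 0.34). After the correction 2 immediate early genes were higher and 2 lower (7.41% each, against 8.47% and 8.02%). Of 13 mRNAs known for transport into dendrites 6 fell (46.2%, against 19.5% of all genes: Shank1, Shank3, Bsn, Kif5a, Camk2a and Dlgap3) and 2 rose (Nrgn and Rgs14). The list median was -0.25 in animal 155 and between -0.070 and -0.017 in the others, 5 fell without that animal, and after the correction 0 were lower and 2 higher. Of 13 glucocorticoid-response genes 5 rose (Mt1, Mt2, Tsc22d3, Nfkbia and Ddit4) and 2 fell (Zbtb16 and Per1), and after the correction 1 was higher and 1 lower. Of 6 Fc receptor and antibody-related genes 0 were called in the negative fraction, as measured and after the correction. In the positive fraction 6 of 6 were higher, where 19% of all genes were. This list overlaps that of the homeostatic microglia genes.

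The 2 endogenous genes whose tagged copies the construct encodes were also examined. Rpl10a, whose EGFP-tagged copy is the bait of the pulldown, had 81.6, 93.4 and 122 CPM in the inputs and 90.5, 99.8 and 165 in the negative fractions with overlap (log2 change 0.18, SE 0.054, adjusted p = 0.0152), against 0.71 in the positive fraction. Its change was of the size of other ribosomal protein genes, and after the correction it was -0.098 and not called. Rangap1, the nuclear pore protein of the construct, had a log2 change of 0.096 (adjusted p = 0.063). Whether transcripts of the construct are counted under these genes was not tested.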

How the data were processed

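The libraries were from TRAP of Cx3cr1-NuTRAP brain homogenates. The deposited table held, per the file headers, raw values per gene (made by the authors in Strand NGS against RefSeq genes of mm10), taken here to be expected counts since most were not whole, and log2 values normalized by the authors with DESeq; the log2 values were not used. The table had 36172 gene rows, 82.8% of the nonzero counts were not whole numbers and were rounded, and 0 columns of per-sample values had no sample.

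A gene was tested where all 6 libraries of either fraction exceeded 20 counts. TMM factors were computed and edgeR 4.0.16 (R 4.3.3) was run with quasi-likelihood tests and animal as block, with Benjamini-Hochberg adjustment over all genes tested and a threshold of 0.05. The pairing came from the animal: deviations from the fraction means correlated within animals at r = 0.0577 (animal 192) to 0.646 (animal 155), and that of animal 192 was below its best correlation with another animal (0.275). CPM were computed with TMM-scaled library sizes and log2 ratios with a prior count of 2. The correction subtracted, per library, a natural spline (5 degrees of freedom) in log transcript length and in GC percent, from GENCODE vM21 transcripts; genes without a length were not corrected. Alternatives were DESeq2 1.42.0, total counts, RLE factors, other filters, no rounding, no block, 3 fractions together, and each animal left out. Rules named the 15 largest changes in each direction with counts above 20 in all libraries and 6 of 6 animals alike, the 5 largest at 100 CPM or more, the genes the study tested by name, and for each list up to 4 called members by p and 3 by level; other genes named were chosen after their values were seen. Lists (61: 26 of symbols, 10 of name patterns, 20 of GO terms and 5 of markers from the supplement) were chosen with earlier results of these data known. The scripts were tested on simulated data. Replicates are separate animals. Some genes are not reported here.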

Additional observations from a re-analysis of the deposited data

Results flagged for a closer look

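In 187 groups of 6 animals, each holding the log2 ratios of 1 named gene or list or the positions of the libraries of 1 fraction on the first principal component, 16 (8.56%) had 1 value far from the rest by Dixon's criterion. Chance gives about 1 in 20 among independent groups. These groups share the same 6 animals and overlap in genes, so they are not independent. In 12 of the 16 the value was that of animal 155. On the first principal component the negative library of this animal lay at -52.5. Among genes the animal's log2 ratio of negative to input was 2.83 for Klk14, 2.11 for Bcmo1, 1.08 for Eif5b, 0.753 for Cldn5, 0.298 for Rangap1, 0.253 for Hsp90ab1 and -0.376 for Pcdhgc3. Among lists, each relative to all genes, its median was 0.257 for the genes the study tested by name, 0.23 for splicing factors, 0.115 for mural cell genes and -0.248 for dendritic mRNAs. Without this animal Klk14, Bcmo1, Eif5b, Cldn5 and Hsp90ab1 stayed called, Pcdhgc3 did not, and Rangap1 was called in neither case.

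The other 4 values came from 2 animals. In animal 194 the log2 ratio was 0.449 for Kcnq1ot1 (0.533 to 0.547 in the others), -0.128 for Lamc1 (-0.432 to -0.355) and -0.0359 for the median of genes annotated to immune response (0.0292 to 0.0611). In animal 210 it was 0.821 for Zbtb20 (0.327 to 0.497).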

How the results depend on the processing

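The count of genes that were higher or lower depended on the pairing. With the animal as a replicate block 2431 genes were higher and 2684 lower; without the block the counts were 194 and 646, all of them among the blocked calls. With the 3 fractions of the line in 1 fit, again with the block, 38 were higher and 296 lower, a fit whose estimate of the spread includes the positive fraction. Above the log2 limit of 0.32 the counts were 501 and 824, and after the GC and length correction 1164 and 1103. Leaving out 1 animal gave 1612 to 2498 higher and 1828 to 2710 lower, the low ends without animal 210. DESeq2, total counts, RLE factors, no filter, a minimum of 100 counts and unrounded counts gave 2236 to 2549 higher and 2379 to 2763 lower. The microglial list's median of -0.016 was 0.0099 among genes with at least 100 counts and -0.048 after the correction, and the neuronal list's -0.062 was -0.00072 after the correction.

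Among the 125 genes examined by name, the correction turned the sign of Ctss (-0.16), Miat (0.076), Meg3 (0.29), Rian (0.28), Aldoa (-0.024), Gapdh (-0.048), Rpl10a (-0.098), Cox8a (-0.057), Atp5b (-0.054), Slc1a2 (0.093), Snap25 (-0.0057) and Cst3 (-0.027). It also turned Tug1 (0.17), Snhg11 (0.12), C1qb (-0.15) and C1qc (-0.19), named only with corrected values. Of the lists, 13 turned in the mean over animals: collagens and laminins (0.021), long non-coding RNAs (0.19), immediate early (-0.011), immune response (-0.012), endothelial (-0.0077), myelin (-0.025), choroid plexus (-0.026), Fc receptor and antibody-related (-0.060), the genes the study tested by name (-0.0060), endoplasmic reticulum (-0.0089), extracellular region (-0.0095), sequence-specific transcription factors (0.0046) and cytoskeleton (0.0080). The trend with length is removed by the correction itself. Of these genes 57 lost their call without the block, 73 in the 3-fraction fit and 5 with DESeq2. Of 108 that were called, 40 lost their call or turned under the correction. The number of animals limits precision, and genes at a few CPM had SEs of up to 0.32.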
